A study of Mus musculus with 2 samples.

Results

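C1q-high macrophages low in Arg1 were selected from the CD45+ (leukocyte) cells of mouse iCCA, intrahepatic cholangiocarcinoma, a bile duct cancer that grows within the liver, on their own UMI counts, each UMI being a counted RNA molecule. A barcode was a member when it passed the quality filter (at least 500 UMIs, at least 200 genes, under 20% mitochondrial UMIs), held at least 10 UMIs of C1qa, C1qb and C1qc together, at least 1 of Csf1r, Cd68 and Adgre1, and fewer than 5 of Arg1. Further limits kept out barcodes with 3 or more UMIs of the Kupffer cell genes Clec4f, Timd4, Cd5l and C6 or 2 or more of Mmp13, and barcodes past low limits for Cxcl9, peritoneal macrophage, interferon-response, neutrophil, lymphocyte and plasmacytoid dendritic cell genes. The rule found 3479 of 21211 barcodes, of which 2463 were among 10770 in the MOCK library and 1016 among 10441 in the NAV library.

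C57BL/6 mice of both groups had received vectors for Myr-AKT and YAPS127A by hydrodynamic injection, which gives rise to the tumours. From day 7 the mice were treated for 7 days, either with NAV2729 at 30 mg/kg every other day (NAV) or without it (MOCK); NAV2729 blocks the loading of ARF proteins with GTP, and ARF1, once loaded, brings the COPI coat onto the Golgi. CD45+ cells were sorted and sequenced on the BD Rhapsody microwell platform as 1 pooled library per treatment, from 6 tumours per group by the series' design text and from 3 paired tumours by the protocol. With 1 library per treatment no test between treatments was made, and every interval covers counting error only.

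C1q is the recognition molecule of the classical complement pathway, built from the chains encoded by C1qa, C1qb and C1qc, and macrophages rather than hepatocytes are a main source of it. Tumour macrophages rich in C1q are known for antigen presentation on MHC class II and for the uptake of dead cells and lipids, while macrophages rich in Arg1, the arginine-degrading enzyme arginase 1, are known as suppressors of T cells. MHC class II genes are switched on together by the coactivator CIITA, which acts through a promoter module that includes the Y box, the binding site of NF-Y.

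The promoters of 3 genes on which the comparison of the treatments turns are shown, as the 250 bases before the RefSeq start on GRCm38.p6: H2-Aa (chr17:34287824-34288073, minus strand) and H2-Eb1 (chr17:34305617-34305866, plus strand), which encode a chain of the class II proteins H2-A and H2-E respectively, and Spp1 (chr5:104434861-104435110, plus strand), the gene of the secreted matrix protein osteopontin. Capitals mark the letters GATTGG, the core of the Y box, or CCAATC, the same letters on the other strand.
H2-Aa: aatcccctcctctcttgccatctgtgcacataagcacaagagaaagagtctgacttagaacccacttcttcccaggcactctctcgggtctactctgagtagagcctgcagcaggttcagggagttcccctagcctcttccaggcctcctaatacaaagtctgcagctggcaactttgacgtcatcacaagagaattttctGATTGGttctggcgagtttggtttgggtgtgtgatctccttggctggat
H2-Eb1: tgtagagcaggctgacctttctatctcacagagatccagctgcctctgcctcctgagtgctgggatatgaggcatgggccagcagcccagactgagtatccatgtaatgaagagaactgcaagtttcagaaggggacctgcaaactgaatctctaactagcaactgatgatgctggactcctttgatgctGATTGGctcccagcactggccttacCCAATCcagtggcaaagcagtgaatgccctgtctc
Spp1: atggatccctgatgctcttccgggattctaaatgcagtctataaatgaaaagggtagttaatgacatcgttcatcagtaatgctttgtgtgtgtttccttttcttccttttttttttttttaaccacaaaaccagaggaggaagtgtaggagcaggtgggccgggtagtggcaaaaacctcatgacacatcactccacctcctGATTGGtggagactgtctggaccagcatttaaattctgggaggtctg
H2-Aa and Spp1 held 1 match each and H2-Eb1 held 2, and 4783 of 32851 promoters of this length (14.6%) held at least 1. A match is a description of the letters and not a measured binding site.

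Depth in the selected cells was close between the libraries, with medians of 5321 UMIs and 2171 genes in MOCK and 4785 UMIs and 1970 genes in NAV, although the libraries as a whole differed more (medians of 3840 and 2169 UMIs per barcode). Median mitochondrial shares were 3.67% and 3.68%. Scrublet, a doublet caller, scored 18 and 5 of the selected cells above 0.25. The libraries shared 5 barcode sequences, of which 1 was a selected cell of MOCK and 0 were selected in NAV.

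The 3 given markers that the rule did not use were set beside all other barcodes, as a description only. They came with the rule, which was chosen with earlier results of these data known, so they do not test the label. Ms4a7, a membrane protein of macrophages, stood at 427 CPM (UMIs scaled to the same total in every selection) in the selected MOCK cells against 145 in all other barcodes, and at 575 against 108 in NAV. Cxcl16, the ligand of the T cell receptor CXCR6, stood at 526 against 282 CPM and at 559 against 211. Mmp14, a membrane-bound metalloproteinase, stood at 228 against 96.6 CPM and at 212 against 60.02. All 3 were therefore higher in the selected cells than in all other barcodes in both libraries. Of the 3, 2 passed the 2-fold rule of the neighbour comparisons below. Against barcodes that failed only the Mmp13 limit, 0 of the 3 passed it, with median log2 differences of -0.42 and -0.32. Against those that failed only the Kupffer limit 0 passed it (1.01 and 0.66). Against those that failed only the Arg1 limit 1 passed it (1.10 and 0.50).

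Detection of genes that the rule used is given as a description only. After thinning each cell to 1000 UMIs, C1qb was found in 92.5% of selected MOCK cells and 92.9% of selected NAV cells, and in 4.61% and 2.10% of B cells, which should lack it and whose median depth was 1301 and 1482 UMIs. Csf1r, the receptor for the macrophage growth factor CSF1 and likewise a gene of the rule, was found in 81.0% and 77.9% of selected cells. Cx3cr1, the fractalkine receptor, was found in 51.6% and 48.3%, and Ccr2, the receptor that brings monocytes out of the marrow, in 31.3% and 40.2%. Ly6c2, a marker of classical monocytes, was found in only 4.4% and 5.05%, beside 13.9% and 4.67% of neutrophil barcodes. Without thinning, C1qb was found in 100% and 99.9% of selected cells and Ccr2 in 59.2% and 67.5%.

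The chains of C1q were counted unevenly. In the selected cells C1qa gave 4.30% of the C1q UMIs of MOCK and 3.2% of those of NAV, C1qb gave 42.8% and 49.9%, and C1qc gave 52.9% and 46.9%. The 3 genes lie side by side on the minus strand of chromosome 4 (C1qa at chr4:136895917-136898803). The low share of C1qa was found in all neighbouring selections too, at 2.09% to 4.35%.

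Members near the limits of the rule were set beside barcodes just outside it, as a description. Among cells with 10 to 12 C1q UMIs (156 in MOCK) Ms4a7 stood at 186 CPM, and among those with 7 to 9, just outside (171), at 163. In NAV these values were 305 CPM (106 cells) and 203 CPM (110 cells). Among members with 2 to 4 Arg1 UMIs (64 in MOCK, 65 in NAV) Spp1 stood at 1518 and 3191 CPM, and among barcodes with 5 to 7 (23 and 34), just outside, at 1477 and 3910. Fcrls, an Fc receptor-like protein, showed a wider step at the C1q limit in MOCK (83.9 CPM inside, 26.6 outside). In NAV Fcrls went the other way at this limit (50.04 CPM inside, 63.7 outside). H2-Ab1 was higher inside the Arg1 limit than outside it (762 against 550 CPM in MOCK, 1233 against 443 in NAV). Most members were far from the Arg1 limit, since 92.9% of MOCK and 87.9% of NAV members had no Arg1 UMI.

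The selected cells made up a smaller share of the NAV library. They were 22.9% of quality-filtered MOCK barcodes (exact 95% interval 22.1 to 23.7) and 9.73% of NAV barcodes (9.17 to 10.3), a log2 ratio of -1.23 (-1.33 to -1.13). Among barcodes with a UMI of Csf1r, Cd68 or Adgre1 they were 31.4% and 17.0%, a log2 ratio of -0.89. These shares are of cells that passed a CD45 sort, and NAV barcodes were shallower. As a variant, barcodes of at least 2000 UMIs were thinned to 2000 before the rule was applied, and shallower ones were left out. This left 7225 of 10770 MOCK and 5463 of 10441 NAV barcodes, so that the total was cut more in NAV. The log2 ratio was then -1.06, from 31.7% and 15.2%.

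The lower share extended to C1q macrophages as a whole and not to the selected cells within them. All C1q macrophages, before the exclusions by Arg1, Kupffer, Mmp13, Cxcl9, peritoneal and interferon genes, were 34.8% of MOCK and 14.3% of NAV barcodes. The selected cells were 65.8% of these in MOCK and 68.1% in NAV, a log2 ratio of 0.05 with an interval from -0.01 to 0.11. Barcodes that met the same rule but for 3 or more Kupffer marker UMIs numbered 628 and 165 (5.83% and 1.58%). Those with 2 or more Mmp13 UMIs numbered 220 and 87 (2.04% and 0.833%).

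Barcodes that met the same rule but for 5 or more Arg1 UMIs, called Arg1-high below, numbered 84 in each library (0.780% and 0.805%), so that they were 2.24% of C1q macrophages in MOCK and 5.63% in NAV. Barcodes that differed from the rule only in having fewer than 10 C1q UMIs, a mixed group, made up 19.1% of MOCK and 23.2% of NAV. The selected cells and the Kupffer and Mmp13 neighbours were thus lower in NAV, while the Arg1-high and low-C1q barcodes were not.

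**Figure D1:**
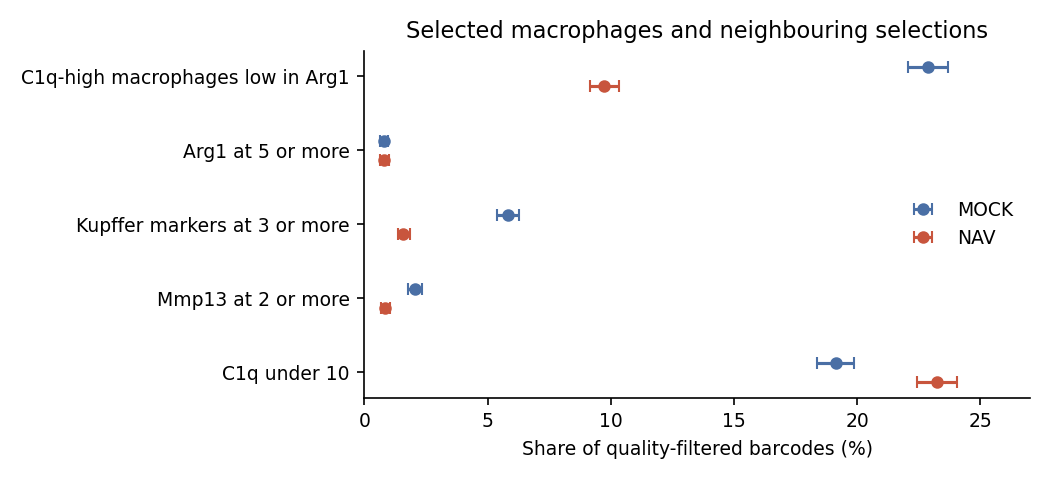
Share of quality-filtered barcodes (x axis, percent) for the selected macrophages and the 4 neighbouring selections (y axis), each of which changes 1 term of the rule. Points are the MOCK (blue) and NAV (red) libraries and bars are exact 95% intervals for counting error; the selected cells lie at 22.9% and 9.73%, and the Arg1-high points lie on each other.

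Gene levels were compared between the treatments on UMIs summed over the selected cells of each library, as the log2 NAV/MOCK ratio of CPM. A gene was called where the ratio was at least 1.5-fold and its exact 95% interval lay beyond 0. Of 11279 genes with at least 20 UMIs, 255 (2.26%) were called higher in NAV and 1064 (9.43%) lower, around a median of -0.02. Each count of list members called between the treatments is to be read beside these shares. Of the lower genes 717 (67.4%) were also called lower in all other barcodes, against 90 (35.3%) of the higher ones. The ratio in all other barcodes is therefore set beside that of each called gene described here, and this group includes other macrophages as well as lymphocytes and neutrophils, whose mix differed between the libraries.

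MHC class II genes were higher in the selected NAV cells. H2-Ab1 stood at 2389 CPM in the selected MOCK cells and 4631 in the selected NAV cells, a log2 ratio of 0.95 (0.93 to 0.98), beside 0.49 in all other barcodes. H2-Aa stood at 2284 and 4273 CPM (0.90, beside 0.47), and H2-Eb1 at 1628 and 3151 (0.95, beside 0.49). Cd74, the invariant chain that guards the peptide groove, stood at 2239 and 4451 CPM (0.99, beside 0.57). These 4 genes, which encode class II chains and the invariant chain, were thus nearly 2-fold higher in NAV by about the same amount.

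Genes that load and regulate class II were less even. H2-DMb1, a chain of the peptide-exchange factor DM, stood at 131 and 291 CPM (1.15, beside 0.65 in all other barcodes), and the coactivator Ciita at 33.9 and 53.2 CPM (0.65, beside 0.28). H2-DMa, the partner chain of DM, went the other way, at 174 and 69.3 CPM (-1.33), and it was lower in all other barcodes as well (-1.78). Ctss, the protease that trims the invariant chain, stood at 6315 and 6132 CPM and was not called. In all, 6 of 10 members measured were called higher and 1 lower, with a median of 0.93, beside 0.49 for the same genes in all other barcodes.

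The class II difference varied between selections. In the Arg1-high barcodes H2-Ab1 stood at 429 and 509 CPM and H2-Eb1 at 316 and 265, so that the latter was slightly lower in NAV. In the barcodes with fewer than 10 C1q UMIs H2-Ab1 stood at 2756 and 3280 CPM. The Kupffer-marker barcodes had 1109 and 2212 CPM and the Mmp13 barcodes 3315 and 5663. The C1q-rich selections without Arg1 were therefore the ones with the wider gaps, though no difference between gaps was tested.

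RNA from other cells was measured beside this result. After thinning to 1000 UMIs, H2-Ab1 was found in 49.2% of selected MOCK and 63.4% of selected NAV cells. Neutrophil barcodes, which should hold little of it, had a UMI in 5.75% and 10.1% at median depths of 1268 and 1165 UMIs, and B cells, which make it, in 96.2% and 95.4%. The 8 B cell genes summed to 72.0 and 90.8 CPM in the selected cells, against 407 and 731 in all other barcodes, and of 6 measured 2 were called higher in NAV and 0 lower, among them the immunoglobulin gene Ighd with 39 and 33 UMIs. The part of B cell RNA in the class II difference was not tested. The 11 dendritic cell genes summed to 142 and 155 CPM in the selected cells, against 363 and 548 in all other barcodes. Leaving out cells with a UMI of 8 of these, Flt3, Xcr1, Clec9a, Zbtb46, Cd209a, Ccr7, Fscn1 or Ccl22 (321 cells in MOCK, 114 in NAV), left the ratio of H2-Ab1 at 0.94.

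**Figure D2:**
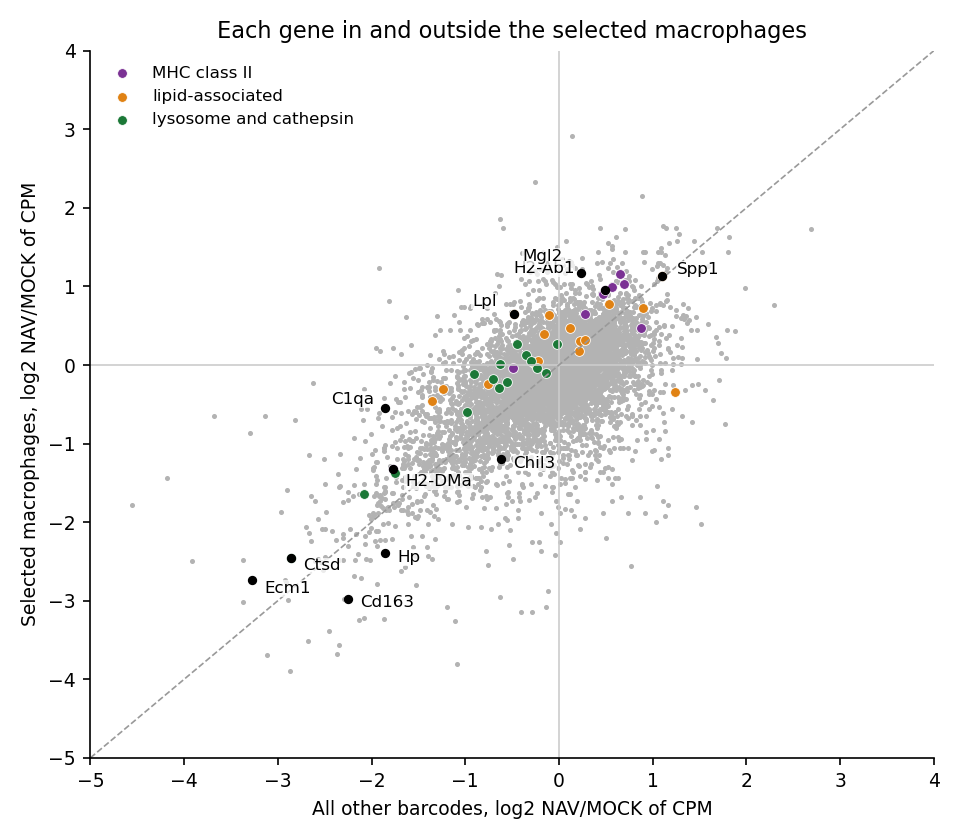
Log2 NAV/MOCK ratio of CPM of each of 11279 genes in the selected macrophages (y axis) against the ratio in all other barcodes (x axis), with the dashed line at equality and axes cut at -5 and 4. Class II genes other than H2-DMa and Ctss lie above 0 on both axes, Ctsd and Ecm1 lie near the line at the lower left, and Lpl is higher in the selected cells only.

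Of 16 lipid-handling genes 4 were called higher in NAV and 0 lower (median 0.31, beside 0.01 in all other barcodes). Over all genes measured 2.26% were called higher. Spp1 stood at 452 CPM in MOCK and 988 in NAV, a log2 ratio of 1.13 (1.08 to 1.18), and it was as much higher in all other barcodes (1.10). Gpnmb, a lysosomal glycoprotein of lipid-laden macrophages, stood at 406 and 673 CPM (0.73), beside 0.89 in all other barcodes. Spp1 and Gpnmb thus differed between the libraries both within and outside the selected cells.

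Lpl, the lipoprotein lipase, behaved otherwise, at 235 and 369 CPM (0.65) in the selected cells and -0.48 in all other barcodes. Fabp5, a fatty acid carrier, stood at 139 and 237 CPM (0.78, beside 0.54 in all other barcodes). Cd36, a receptor for oxidised lipoproteins listed with the scavenger receptors, stood at 114 and 203 CPM (0.84, beside 0.16). Trem2, the lipid-sensing receptor, stood at 355 and 257 CPM and Apoe, the main carrier of cholesterol out of macrophages, at 4830 and 3919, and neither was called.

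Spp1 RNA was also read in neutrophil and B cell barcodes, and whether it was free RNA there was not tested. Spp1 was found in 18.9% of selected MOCK and 28.3% of selected NAV cells at 1000 UMIs, in 3.11% and 7.36% of neutrophil barcodes and in 0.987% and 1.5% of B cells. Gpnmb was found in 11.1% and 15.3% of selected cells and in 0.599% and 0.987% of neutrophil barcodes. Shares in the selected cells were above those in neutrophils and B cells in both libraries, and the part of free RNA in the difference was not tested. Spp1 is also on the list of duct and tumour cell genes. At 1000 UMIs Krt19 and Apoa1, genes of duct cells and hepatocytes, were found in 0 of 2457 MOCK and 0 of 1010 NAV cells. Without thinning they were found in 0.04% and 0.16% of MOCK cells and in 0% of NAV cells. Alb was then found in 1.95% of MOCK and 1.57% of NAV cells, and Epcam in 0.85% and 0.79%.

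Receptors for debris and apoptotic cells were mostly lower in NAV, with 9 of 16 called lower and 1 (Cd36) higher. Over all genes measured 9.43% were called lower and 2.26% higher. Stab1, the scavenger receptor stabilin 1, stood at 606 and 354 CPM (-0.77), and Lrp1, an endocytic receptor for many ligands, at 436 and 212 (-1.04). Itgb5, the integrin chain that binds the bridging protein Mfge8, stood at 440 and 228 CPM (-0.95). Cd163, the haemoglobin-haptoglobin receptor, had 150 UMIs in MOCK and 7 in NAV (-2.98). Each of these 4 was also lower in NAV in all other barcodes, at -1.29 for Stab1, -1.59 for Lrp1, -1.60 for Itgb5 and -2.25 for Cd163. With the ratio in all other barcodes taken off, the median of the list turned from -0.70 to 0.60, with Marco at its bound. Axl, a receptor for apoptotic cells, at 627 and 690 CPM, was not called.

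**Figure D3:**
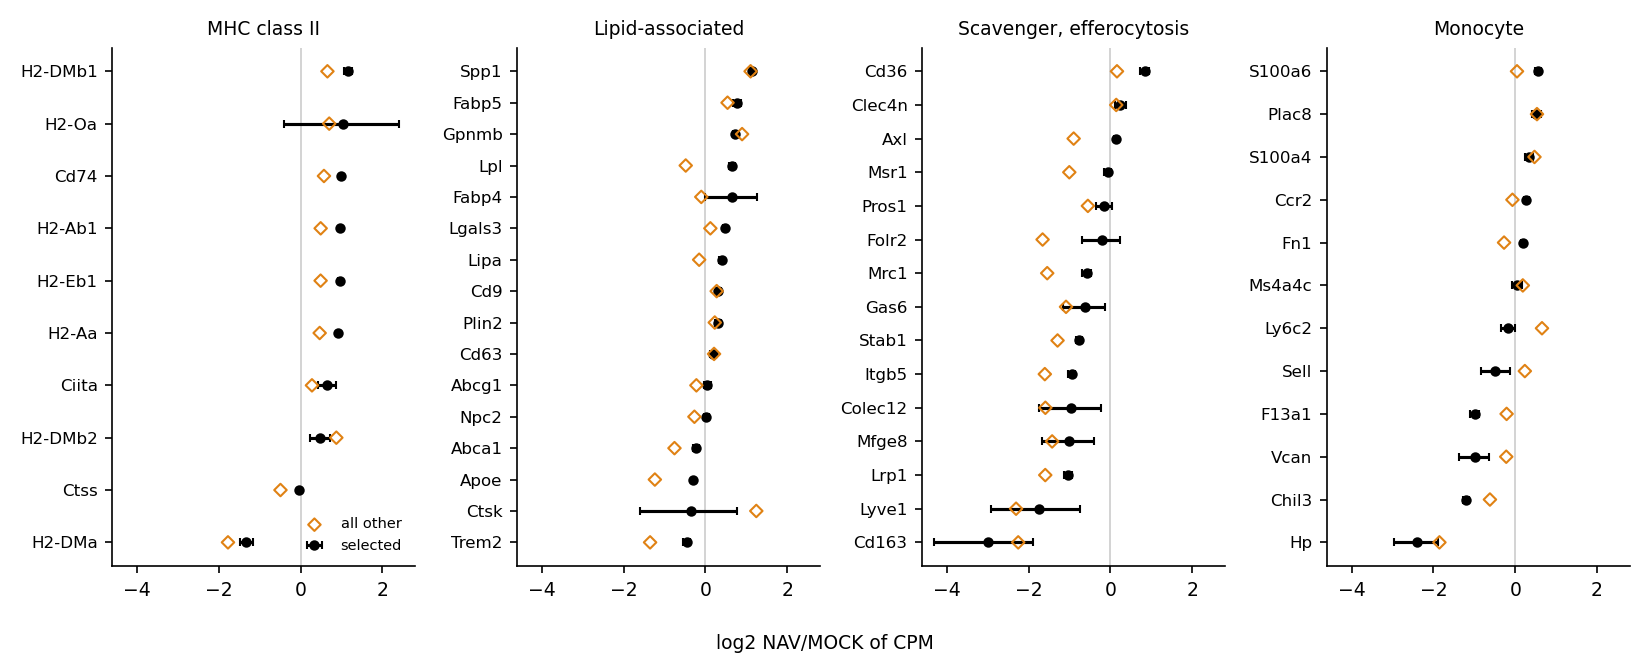
Log2 NAV/MOCK ratio of CPM (x axis) for the measured members of 4 gene lists with a UMI in both libraries (y axis). Black points are the selected macrophages with exact 95% intervals and orange diamonds all other barcodes; most class II points lie near 0.9 and most scavenger receptors below 0, and Marco, with 25 UMIs in MOCK and 0 in NAV, is not drawn.

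Lysosomal enzymes separated into a few lower genes and a level majority. Ctsd, the aspartic protease cathepsin D, stood at 977 CPM in MOCK and 178 in NAV (-2.46), beside -2.86 in all other barcodes. Hexa, a hexosaminidase chain, stood at 411 and 132 CPM (-1.64, beside -2.08), and Ctsa at 575 and 221 (-1.38, beside -1.74). With Ctsz (494 and 328 CPM, -0.59, beside -0.98) these were the 4 of 15 called lower, and 0 were called higher. Over all genes measured 9.43% were called lower. With the ratio in all other barcodes taken off, the median of the list turned from -0.11 to 0.39. Ctsb, at 4865 and 5832 CPM, and Psap, the precursor of the saposins, at 7735 and 9283, were not called.

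The genes lowest in NAV over the whole table were of many kinds. Ecm1, a secreted matrix protein, stood at 223 and 33.4 CPM (-2.74), Ppp1ca, a phosphatase catalytic subunit, at 364 and 64.3 (-2.50), and Fau, a ribosomal protein precursor, at 522 and 98.3 (-2.41). Their ratios in all other barcodes were -3.27, -2.54 and -2.15. The other genes among the 12 lowest were Ctsd, Ap1s1, Cyp4f18, Tmem119, Mt2, Bscl2, Rcan1, Cct7 and Bola2. All 12 had a ratio below -2 in all other barcodes too.

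Of 18 complement genes measured, 1 was called higher and 2 lower, with a median of -0.02 beside -0.75 in all other barcodes. The 18 include C1qa, C1qb and C1qc, on which the cells were selected, so that the medians are a description only. Itgax, the integrin chain CD11c of complement receptor 4, stood at 247 and 456 CPM (0.89, beside 0.74 in all other barcodes), while Itgam, the chain CD11b of complement receptor 3, stood at 642 and 708. C3ar1 and C5ar1, the anaphylatoxin receptors, stood at 495 and 465 CPM and at 755 and 696. Vsig4, a complement receptor of resident macrophages, was called lower at 29.6 and 19.4 CPM (-0.61, beside -1.92). Of 17 genes of macrophage identity, which include Csf1r, Cd68 and Adgre1 of the rule, 0 were called in either direction. Among those outside the rule was Cx3cr1, at 898 and 827 CPM.

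Chemokine genes were level, with 1 of 17 called. Ccl4, a chemokine of activated macrophages, stood at 530 and 475 CPM, Cxcl2, a ligand that draws in neutrophils, at 682 and 689, and Ccl2, the CCR2 ligand, at 200 and 161. The gene called was Ccl24, which draws in eosinophils, with 85 and 11 UMIs (-1.51, beside -2.5 in all other barcodes). Among chemokine receptors 1 of 7 was called, the scavenging receptor Ackr3 at 1.98 and 6.14 CPM (1.63, beside 0.61). Ccl17 and Ccl22, CCR4 ligands made by dendritic cells as well as macrophages, were both higher in NAV, with 128 and 114 UMIs (1.27, beside 0.05) and 60 and 74 UMIs (1.74, beside 1.14). With the cells holding a UMI of those 8 dendritic genes left out, the ratio of Ccl17 turned to -1.43.

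Cytokine genes were level or lower, with 4 of 14 called lower and 0 higher, beside 9.43% called lower over all genes measured. The list had a median of -0.14, beside -0.41 in all other barcodes. Il1a stood at 224 and 120 CPM (-0.90) and Tnfsf12, the ligand TWEAK, at 195 and 109 (-0.84), and both were similarly lower in all other barcodes (-0.78 and -1.09). Il1b stood at 2176 and 2034 CPM, Tnf at 133 and 131, and Il10 at 33.8 and 31.9, none of them called. Among growth factors, Pdgfb, a mitogen of stellate cells, stood at 132 and 50.9 CPM (-1.37, beside -1.74 in all other barcodes) and Igf1 at 144 and 95.6 (-0.59, beside -1.46), the 2 called of 10.

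Of 18 genes known for type I interferon, 4 were called lower and 0 higher, beside 9.43% called lower over all genes measured. Their median was -0.23, beside -0.44 in all other barcodes. Among those called were Isg15, a ubiquitin-like modifier, at 25.9 and 7.49 CPM (-1.79) and Irf7, a transcription factor of the antiviral loop, at 37.1 and 15.2 (-1.29). Both were as low in all other barcodes (-1.90 and -1.45). Of 13 genes known for interferon gamma, 3 were called higher and 0 lower, with a median of 0.28 beside 0.45 in all other barcodes. With the ratio in all other barcodes taken off, the medians turned to 0.07 for the type I list and -0.18 for the interferon gamma list. Gbp2, a guanylate-binding protein, stood at 14.8 and 32.1 CPM (1.11, beside 1.05 in all other barcodes). The rule had already removed barcodes with high Ifit1, Ifit3, Rsad2 or Cxcl9.

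Markers of alternative activation pointed both ways, with 2 of 10 called higher and 3 lower. Mgl2 and Clec10a, the galactose lectins known as CD301, stood at 24.3 and 54.5 CPM (1.17, beside 0.24 in all other barcodes) and at 14.8 and 31.3 (1.08, beside 0.81). Chil3, the chitinase-like protein Ym1, stood at 712 and 310 CPM (-1.20, beside -0.62), and Il4ra, the receptor chain for IL-4 and IL-13, at 284 and 107 (-1.40, beside -1.12). Arg1 itself, limited by the rule to fewer than 5 UMIs per cell, stood at 20 and 47.2 CPM, a description only. Nos2, the inducible nitric oxide synthase, had 24 and 2 UMIs in all selected cells.

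Genes of monocytes were level as a list, with a median of -0.07 beside -0.01 in all other barcodes, and lower where they were called. F13a1, the coagulation factor XIII subunit, stood at 299 and 150 CPM (-0.99, beside -0.21 in all other barcodes), Vcan, the proteoglycan versican, at 28.7 and 14.4 (-0.99, beside -0.22), and Hp, haptoglobin, at 32.4 and 6.14 (-2.40, beside -1.85). With Chil3 these were 4 of 12, and 0 were called higher, beside 9.43% called lower over all genes measured. Of the 12, 6 had a ratio above 0. Ccr2, at 491 and 592 CPM, and Plac8, at 160 and 230, were not called. Vcam1, an adhesion molecule that binds lymphocyte integrins, stood at 287 and 87.9 CPM (-1.71), beside -1.86 in all other barcodes.

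The COPI and ARF genes, whose products NAV2729 acts on or near, were level by their median (-0.05, beside 0.04 in all other barcodes). Of 23 measured, 5 were called lower and 0 higher, beside 9.43% called lower over all genes measured. Arf1 stood at 603 and 563 CPM, Arf6 at 410 and 427, and Copa, the largest coat subunit, at 172 and 181. The genes called were Arfgap2 at 39.5 and 12.1 CPM (-1.71), Arfgap3 at 22.8 and 10.2 (-1.16), which both end the GTP-bound state of ARF, the retrieval receptor Kdelr2 at 65.1 and 40.5 (-0.68), and the coat subunits Cope at 43.8 and 29.2 (-0.59) and Copz2 at 3.60 and 1.73 (-1.06). In all other barcodes these 5 had ratios of -1.67, -0.89, -0.58, -0.54 and -0.70. Of 14 endoplasmic reticulum chaperone and stress genes 1 was called, Ddit3, with 135 and 23 UMIs (-1.11, beside -0.76 in all other barcodes).

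Of 11 heat shock genes 3 were called higher in NAV and 2 lower, with a median of 0.24 beside 0.27 in all other barcodes. The genes called higher were the inducible Hspa1a at 396 and 684 CPM (0.79, beside 0.41) and Hspa1b at 265 and 465 (0.81, beside 0.63), and Hsp90aa1 at 767 and 1154 (0.59, beside 0.48). Those called lower were the constitutive Hspa8 at 2147 and 1187 CPM (-0.85, beside -0.99) and the small heat shock protein gene Hspb1, with 85 and 11 UMIs (-1.51, beside -1.95). Tissue dissociation is known to induce heat shock and immediate early genes, and its part was not tested. Of 14 immediate early genes only Fosb was called, at 1768 and 752 CPM (-1.23, beside -1.4). Of 14 cell cycle genes 5 were called lower and 0 higher, beside 9.43% called lower over all genes measured. The list had a median of -0.32, beside -0.06 in all other barcodes. Genes of mitosis were lower where called, among them Mki67 at 74.6 and 43.0 CPM (-0.80, beside -0.33).

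Compared with the Arg1-high barcodes, the selected cells had far more class II RNA. Genes were called here at 2-fold or more in the same direction in both libraries with both intervals beyond 0, the genes of the rule left out, and since the selection read these same cells the comparisons are descriptions. Of 9435 genes, 115 (1.22%) were higher in the selected cells and 90 (0.954%) lower. H2-Aa was higher by 2.78 on the log2 scale in MOCK and 3.23 in NAV, and 7 of 9 class II genes measured were called higher. Vcam1 was higher by 3.36 and 3.11, and Cadm1, a cell adhesion molecule, by 2.68 and 3.4. Ccl5, a chemokine that draws in T cells, had 1136 UMIs in the selected MOCK cells and 0 in the Arg1-high ones, and 355 and 1 in NAV.

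Other genes were lower in the selected cells than in the Arg1-high barcodes. Spp1 stood at 452 against 3073 CPM in MOCK and 988 against 6748 in NAV, a log2 difference of -2.77 in each. Fn1, fibronectin, was lower by a log2 of -2.17 and -2.03, Pdpn, podoplanin, by -2.49 and -2.21, and Ccl6 by -2.34 and -1.88. Of 15 hypoxia and glycolysis genes 8 were called lower and 0 higher, of 16 matrix genes 4 lower and 2 higher, and of 15 chemokine genes 6 lower and 3 higher. Macrophage identity genes were called in neither direction (0 of 14).

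Against the barcodes with Kupffer markers, the resident macrophages of the liver, 372 of 9666 genes (3.85%) were higher in the selected cells and 422 (4.37%) lower. Ccr2 stood at 491 against 49.5 CPM in MOCK and 592 against 47.2 in NAV. Spp1 was higher by 5.14 and 5.36 on the log2 scale, F13a1 by 5.23 and 5.64, Fcrls by 4.39 and 5.87, and Fcgr2b, the inhibitory Fc gamma receptor, by 4.30 and 4.05. Monocyte genes were higher in 10 of 12 cases.

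All 10 further Kupffer genes of a list that leaves out the rule's were lower in the selected cells. Vsig4 stood at 29.6 against 1754 CPM in MOCK and 19.4 against 1695 in NAV, and Folr2, a folate receptor of resident macrophages, at 11.6 against 419 and 9.98 against 445. Marco, a bacterial scavenger receptor, had 25 UMIs against 855 in MOCK and 0 against 175 in NAV. Class II was higher in the selected cells in 3 of 9 genes, and 7 of 15 scavenger genes were lower.

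The Mmp13 barcodes were the nearest neighbours, with 35 of 9461 genes (0.37%) higher in the selected cells and 47 (0.497%) lower. Fn1 was higher by 1.90 and 1.95 on the log2 scale and Gpnmb by 1.52 and 2.01, and monocyte genes were higher in 7 of 12 cases. Mmp12, the macrophage elastase, stood at 73.8 against 488 CPM in MOCK and 87.0 against 523 in NAV. Vcam1 stood at 287 against 914 CPM and at 87.9 against 570. Of 9 class II genes 0 were called between these selections, with median log2 differences of -0.38 and -0.27.

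Against all other barcodes 99 of 12374 genes (0.8%) were higher in the selected cells and 1051 (8.49%) lower. Leading were Fcrls at 204 against 47.3 CPM in MOCK and 236 against 28.1 in NAV, Tmem119, known as a marker of microglia, at 144 against 37.6 and 25.7 against 3.62, and Slco2b1, an organic anion transporter, at 85.9 against 19.3 and 43.8 against 4.61. Among the 15 leading genes were also Gpr34, a lysophospholipid receptor, the collagen gene Col14a1, the secreted protein gene Olfml3, Pmepa1, a feedback regulator of TGF-beta signalling, and Itga6, a laminin-binding integrin chain. Lymphoid and neutrophil genes were lower, as 11 of 12 T and NK cell genes, 8 of 8 B cell genes and 9 of 10 neutrophil genes.

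**Figure D4:**
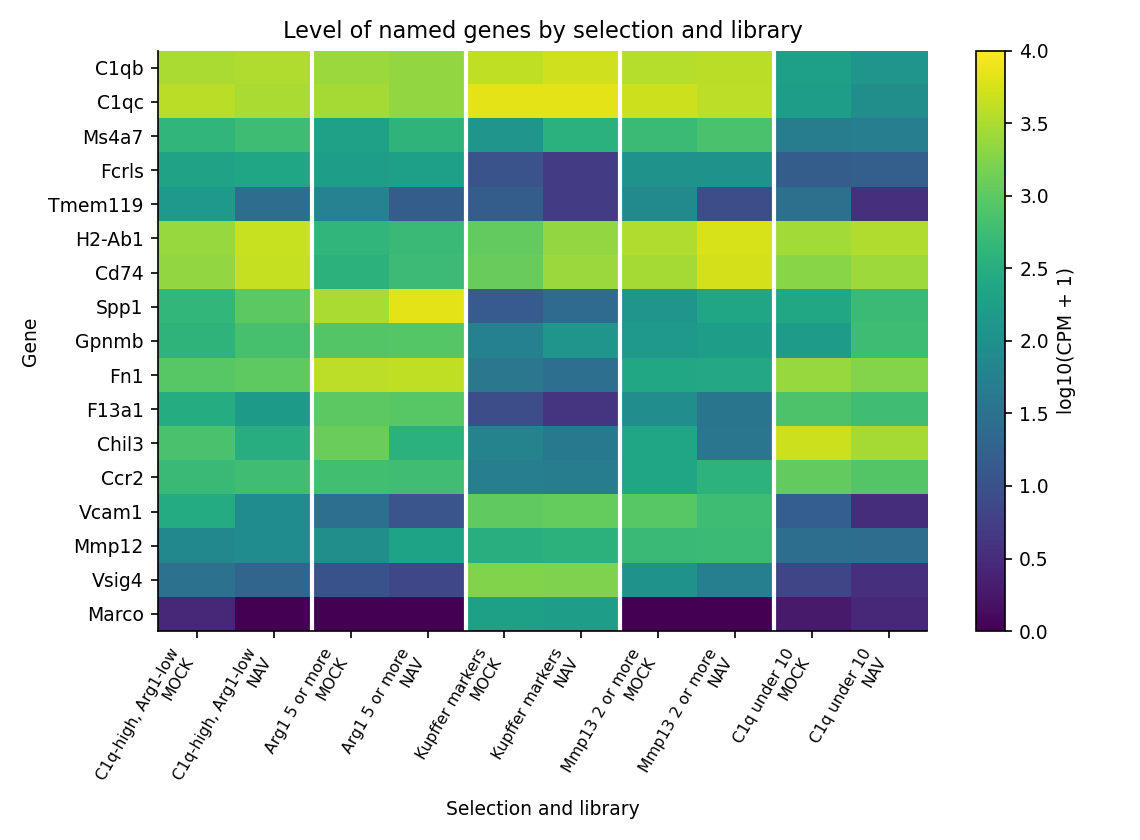
Level of 17 genes as log10(CPM + 1) (colour) in the selected macrophages and the 4 neighbouring selections, each in the MOCK and NAV library (columns). The selected cells share class II RNA with the Mmp13 and low-C1q barcodes, share Ccr2, Fn1 and F13a1 at lower levels with the Arg1-high and low-C1q barcodes, and are nearly free of the Kupffer genes Vsig4 and Marco.

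Among themselves the selected cells differed most in a few programmes. With each cell thinned to 2000 UMIs (2392 MOCK and 960 NAV cells, 71 and 56 shallower ones left out), the variance divided by the mean had a median of 1.08 and 1.09 over 5003 genes, close to counting noise. Thbs1, thrombospondin 1, reached 14.2 and 13.1, Gpnmb 12.4 and 17.4, H2-Ab1 11.1 and 12.4, Hspa1a 10.4 and 11.4, Fos 11.8 and 9.35, and Spp1 7.6 and 21.7. This ratio grows with the mean, and the mean of Spp1 was 0.863 UMIs per thinned cell in MOCK and 2.03 in NAV, with 73.9% and 61.8% of cells at 0.

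Single cells ranged from no class II RNA to very much of it. The sum of H2-Aa, H2-Ab1, H2-Eb1 and Cd74 had a median of 5 UMIs per thinned cell in MOCK and 21 in NAV, with means of 18.2 and 33.4. It was 0 in 30.3% of MOCK cells (exact 95% interval 28.5 to 32.2) and 17.7% of NAV cells (15.3 to 20.3). A sum of 20 or more was found in 32.8% (30.9 to 34.7) and 50.9% (47.7 to 54.1), a range cut from a continuous spread, with 93 MOCK and 36 NAV cells at 15 to 19 and 93 and 31 at 20 to 24. The C1q sum, which the rule holds at 10 or more before thinning, had medians of 14 and 13 at this depth, a description only.

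**Figure D5:**
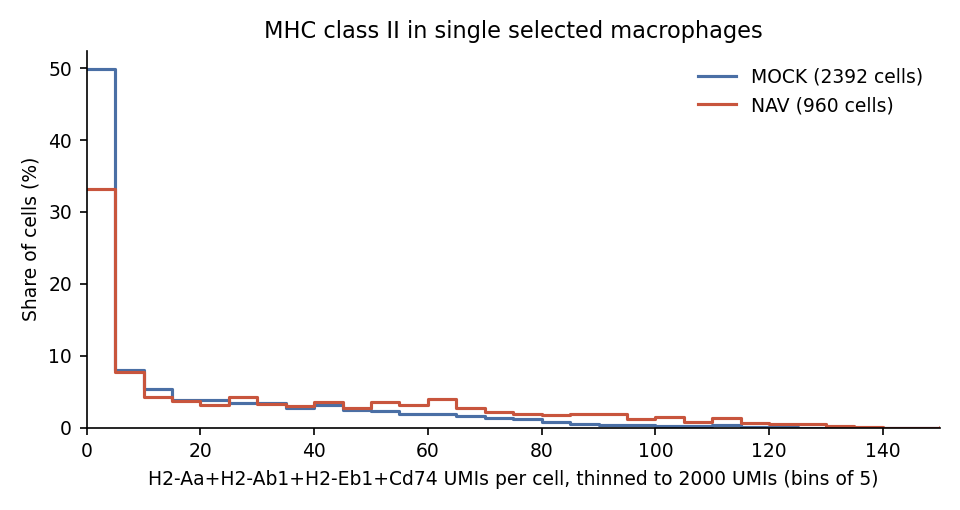
Distribution over single selected macrophages of the sum of H2-Aa, H2-Ab1, H2-Eb1 and Cd74 UMIs (x axis, bins of 5 UMIs, each cell thinned to 2000 UMIs) as the share of cells of each library (y axis, percent). The MOCK line starts higher at 0 to 4 UMIs (49.9% of cells) than the NAV line and lies below it at sums above about 50; 5 NAV cells lie beyond the right edge.

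Class II RNA and that of Gpnmb and Spp1 were mostly found in different cells. Between the top and bottom class II terciles of thinned cells (797 cells each in MOCK, 320 in NAV), 40 of 6478 genes (0.617%) were higher in the top tercile and 41 (0.633%) lower. The terciles were cut within each library and lay at unlike levels. The bottom one reached 1 UMI in MOCK and 5 in NAV, and the top one began at 19 and 45. Ciita had 128 UMIs in the top against 1 in the bottom tercile of MOCK and 77 against 1 in NAV. Mgl2 had 91 against 4 and 90 against 1, Itgax 643 against 176 and 411 against 144, and Ccl5 177 against 29 and 82 against 16. Ccl17, made by dendritic cells as well as macrophages, had 38 against 0 and 35 against 0. Flt3, a receptor of dendritic cells and their precursors, had 58 against 32 and 25 against 1 and was not called. The part of dendritic cells in the top tercile was not tested. Gpnmb had 84 against 1232 UMIs in MOCK and 39 against 793 in NAV, Spp1 262 against 1257 and 158 against 1441, and F13a1 137 against 807 and 21 against 237. Arg1, which the rule holds under 5 UMIs per cell, stood at 16 against 62 and 8 against 81, a description only.

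Cells with 20 or more class II UMIs together with 3 or more of Spp1 or Gpnmb were 1.34% of MOCK and 5.83% of NAV cells. Those with neither property were 53.8% of MOCK and 31.6% of NAV cells, those with class II only 31.4% and 45.1%, and those with Spp1 or Gpnmb only 13.4% and 17.5%. The exact intervals of the class low in both were 51.8 to 55.8 in MOCK and 28.6 to 34.6 in NAV. These limits were set after the data were seen.

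Along the C1q sum itself the cells differed in monocyte genes at 1 end and in Vcam1, Vsig4 and Slc40a1 at the other. Between the top and bottom C1q terciles 48 of 6506 genes (0.738%) were higher in the top tercile and 58 (0.891%) lower. Vcam1 had 961 UMIs in the top against 99 in the bottom tercile of MOCK and 132 against 20 in NAV. Vsig4 had 108 against 8 and 27 against 4, Slc40a1, the iron exporter ferroportin, 114 against 22 and 43 against 5, and Ms4a7 1119 against 387 and 553 against 244. At the other end, Ly6c2 had 40 against 274 UMIs and 9 against 101, Chil3 288 against 2412 and 67 against 370, and Plac8 78 against 482 and 44 against 317. Of 10 monocyte genes 7 were lower in the top tercile and 0 higher, while 0 of 9 class II genes were called (medians 0.13 and 0.28). Of 4 Kupffer genes measured that the rule did not use, 3 were higher in the top tercile and 0 lower (medians 2.18 and 2.71).

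Markers of other cells were read over whole lists in the selected cells. Of 6 erythroid genes, 4 were at 0 in MOCK and 6 in NAV. The 10 hepatocyte genes, Trf among them, summed to 597 and 393 CPM, against 462 and 240 in all other barcodes, with Alb at 3.82 and 3.07. The 10 genes of duct and tumour cells summed to 463 and 997 CPM, against 316 and 648 in all other barcodes. Spp1, at 452 and 988 CPM, is a member of that list, and Epcam stood at 1.98 and 1.92. The 12 T and NK cell genes summed to 83.0 and 155 CPM, against 342 and 712 in all other barcodes, and 2 of 11 measured were called higher in NAV and 1 lower. The genes called were Il7r, the IL-7 receptor chain, with 708 and 570 UMIs (1.13, beside 0.75), Gzma, a granzyme, with 70 and 82 UMIs (1.67, beside 1.28), and the T cell receptor gene Trbc2, with 71 and 9 UMIs (-1.54, beside 1.04). Neutrophil genes were lower in NAV in 4 of 8 cases, among them S100a8 at 43.2 and 19.8 CPM, beside a ratio of -0.92 for S100a8 in all other barcodes. The part of such RNA in the differences between the libraries was not tested.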

How the data were processed

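Raw UMI counts per gene and barcode were deposited by the authors as 1 matrix per library; the submitters' processing notes name fastp, STARsolo 2.7.10a, Cell Ranger and mm10. The matrices held 31253 genes and barcodes of at least 500 UMIs. The selected cells, the gene lists and the limits were chosen with earlier results of these data known. Counts were summed per selection and scaled to CPM; a log2 ratio has an exact 95% interval conditional on the summed UMIs, and a 0 was set to a floor of 3 UMIs. Genes needed 20 UMIs over both libraries for NAV/MOCK (1.5-fold) and in each library between selections (2-fold in both). Neutrophil barcodes (at least 2 UMIs of Csf3r and Cxcr2, none of the macrophage or lymphoid genes of the rule) and class II terciles were chosen after the data were seen.

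Named genes were those of the rule, the 6 given markers, the 12 highest and 12 lowest in NAV, the 8 highest and lowest against each neighbour and along C1q, the 15 highest against all other barcodes, and up to 4 members of each of 37 lists by UMIs plus any called. Ccl2, Cx3cr1, Il10, Ly6c2, Trem2, Apoa1, Krt19 and the genes of the class II terciles were named after their values were seen. Doublets by Scrublet (scanpy 1.11.5) were kept, and left out as an alternative. Other alternatives varied the filters, limits, scaling and thinning. Python 3.11.15, numpy 2.4.6, scipy 1.17.1 and pandas 2.3.3 were used, and the calls were tested on simulated data. Genes were matched to GENCODE vM21, and promoters came from RefSeq on GRCm38.p6.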

Additional observations from a re-analysis of the deposited data

Results flagged for a closer look

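The log2 NAV/MOCK ratios of 5 genes were called in opposite directions in the selected cells and in the barcodes with Kupffer markers, and the difference was not tested. They are listed as single genes and not as a share of the genes compared. The Kupffer-marker barcodes numbered 628 in MOCK and 165 in NAV. Over all 11279 genes measured in the selected cells, 2.26% were called higher and 9.43% lower. Mmp9, a gelatinase, was at 1.55 in the selected cells and -2.94 in the Kupffer-marker barcodes. Gzma, a granzyme of cytotoxic lymphocytes, was at 1.67 and -2.82. The 12 T and NK cell genes, Gzma among them, summed to only 43.1 CPM in MOCK and 32.2 in NAV in the Kupffer-marker barcodes. Pecam1, an adhesion molecule of endothelium and leukocytes, was at 0.69 and -0.93. Flt3, a receptor of dendritic cells and their precursors, was at -0.65 and 1.08, and Copz2, a COPI subunit, at -1.06 and 1.08.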

How the results depend on the processing

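The share of selected cells had a log2 NAV/MOCK ratio of -1.43 with at least 20 C1q UMIs and -0.886 among barcodes with a macrophage UMI. It was -1.06 with barcodes thinned to 2000 UMIs and shallower ones left out. Taken as a share of C1q macrophages, which is another quantity, it was level at 0.0506, with an interval from -0.0096 to 0.111. Genes higher in NAV numbered 214 to 351 and genes lower 995 to 1091 under the alternatives that kept the scale, while with the ratio in all other barcodes taken off 281 were higher and 298 lower. On that scale the list medians reversed for MHC class I (-0.131), scavenger (0.559), lysosome (0.386), growth factor (0.474), iron (0.318), alternative activation (0.154) and further Kupffer genes (1.22), the scavenger and Kupffer medians without Marco, which had 0 UMIs in NAV. Named genes that reversed on it had values of Clec4f 0.969, Cxcl9 -0.186, Ecm1 0.532, Ctsd 0.404, Ppp1ca 0.0364, Ap1s1 0.155, Tmem119 0.894, Rcan1 0.525, Cct7 0.311, Bola2 0.107, Vsig4 1.31, H2-DMa 0.45, Stab1 0.517, Itgb5 0.656, Lrp1 0.55, Mfge8 0.405, Gpnmb -0.164, Ctsa 0.367, Ctsz 0.386, Hexa 0.442, Ccl24 0.993, Tnfsf12 0.252, Igf1 0.87, Pdgfb 0.371, Slc40a1 0.569, Isg15 0.103, Irf7 0.163, Fosb 0.164, Hspa8 0.136, Hspb1 0.443, Vcam1 0.149, Slco2b1 1.09 and Gpr34 0.182; the cause was not tested. On it H2-Ab1 was at 0.46 and Spp1 at 0.03. With cells holding dendritic UMIs left out, an alternative chosen after seeing the data, Ccl17 reversed to -1.43. Without thinning, the C1q terciles differed in 105 higher and 126 lower genes. No paired analysis was possible because each treatment has 1 library. Leaving out a replicate was not possible either, so no value here speaks of the spread between mice.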
